A study of Arabidopsis thaliana with 25 samples.

Results

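Cotyledons that had grown for 5 days in long days were compared with cotyledons that had grown for 5 days in darkness and had then received 24 h of continuous light. The comparison used 10 of the 25 libraries of the series, 5 of the long-day group (L) and 5 of the group given 24 h of light (24h), taken by their labels and compared without pairing. All 10 came from wild-type Arabidopsis thaliana seedlings on MS 1/2 medium. The tissue had been fixed in acetone, the cotyledons dissected, and Drosophila cells added before RNA extraction, so each library also held fly RNA. The other 15 libraries, dark-grown seedlings and those given 1 h or 6 h of light, also entered the gene-level fit. They contributed to its estimate of the spread, its filter on low counts and its scaling. The labels call the 5 libraries of a group biological replicates. The groups differed in more than the length of time in light: L seedlings had germinated in light, had dark periods every day and were a day younger at harvest than 24h seedlings. These differences cannot be told apart here, and the hour of harvest is not stated in the labels.

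A cotyledon that grows in darkness stays small, folded and without functional chloroplasts. The first light turns it into a photosynthetic organ: it opens, greens and expands, and nuclear genes for chloroplast proteins are transcribed at high rates. In seedlings that grow in day and night cycles the same organ is already expanded and green, and the circadian clock, starch turnover, growth hormones and defence compounds follow the daily cycle.

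Of 53986 entries in the deposited table, 20615 Arabidopsis entries passed the filter on low counts and were tested. The 24h libraries held 20565079 to 23964895 counts and the L libraries 20828845 to 24085995, and fly genes took 0.352% to 0.939% and 0.184% to 0.429% of them. Both groups carried the genes that mark a green cotyledon. The 20 antenna protein genes together took 57970 to 109700 CPM (Arabidopsis counts scaled to a common library total, here by TMM as described below) in 24h and 76220 to 180700 in L. The 18 Calvin-Benson cycle genes took 97380 to 155600 and 131800 to 168500. Of 10 root markers 2, IRT1 and CASP1 (AT2G36100), passed the filter on low counts. These 2 summed to 0 to 0.358 CPM in 24h and 0.867 to 2.86 in L. Both were called higher in L with either scaling described below, at log2 fold changes of 2.83 and 4.81 within Arabidopsis. Without L replicates 4 and 5, 1 of them was called within Arabidopsis. In addition, 6 of the 10 stayed under 10 counts in every library of both groups. Of 7 markers of the shoot meristem the 6 tested summed to 2.00 to 4.3 CPM in 24h and 0.483 to 5.20 in L. Of 4 trichome markers 1 was tested, at 15.7 to 22.7 in 24h and 4.52 to 19.5 in L. Some libraries stood apart from others of their group: L replicates 4 and 5 from L replicates 1 to 3 in several clock and heat shock genes, and 24h replicates 4 and 5 from 24h replicates 1 to 3 in cold response genes. Counts of called genes were therefore also taken without L replicates 4 and 5, an alternative chosen after the data were seen. They are given below for part of the lists.

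Relative to the added fly RNA, L libraries held more Arabidopsis nuclear RNA. Nuclear counts per fly count were 103, 178, 146, 267 and 162 in 24h replicates 1 to 5 and 462, 536, 219, 466 and 377 in L replicates 1 to 5. All L libraries but replicate 3 lay above every 24h library, and L replicate 3 lay below 24h replicate 4. The means were 171 ± 60.4 (SD, n = 5) and 412 ± 122 (SD, n = 5), a 2.42-fold difference, or 1.27 ± 0.32 on the log2 scale (SE). The two-sided exact permutation test gave p = 0.0159 against a smallest possible 0.00794, and p = 0.0952 when adjusted over the 6 tests of ratios and shares, so the difference did not pass the threshold of 0.05. The log2 difference was 1.88 within replicates 1 and 2 and 0.871 within replicates 3 to 5. Fewer or smaller cells in a sample and less RNA per cell cannot be told apart in these bulk libraries, nor can a different number of added fly cells.

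**Figure D1:**
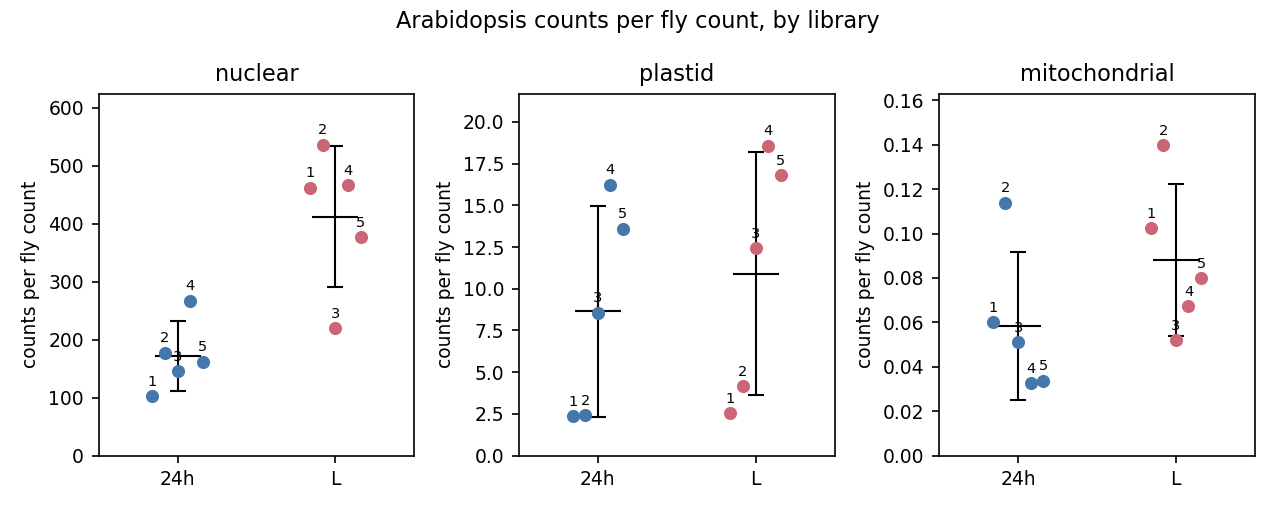
Nuclear, plastid and mitochondrial Arabidopsis counts per fly count (vertical axes, linear from 0) in each 24h and L library; digits name the replicate, the long bar is the mean and the error bar is 1 SD (n = 5). Nuclear counts per fly count averaged 171 in 24h and 412 in L with 1 overlapping L library, whereas plastid counts split by replicate number in both groups.

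Organelle transcripts did not pass the tests of the unpaired comparison. Plastid counts per fly count were 2.36, 2.43, 8.57, 16.2 and 13.6 in 24h and 2.55, 4.17, 12.4, 18.6 and 16.8 in L. Replicates 1 and 2 of both groups were low and the others high, so the groups overlapped over most of their range. The log2 difference was 0.39 ± 0.83 (SE; two-sided exact permutation p = 0.595). As a share of Arabidopsis counts the plastid genes took 4.53% ± 2.66 (SD, n = 5) in 24h and 2.96% ± 2.17 in L (two-sided exact permutation p = 0.302). Mitochondrial counts per fly count differed by 0.68 ± 0.41 on the log2 scale (SE; two-sided exact permutation p = 0.135). The libraries were read from a table of gene counts, and how organelle transcripts without poly(A) tails entered them is not stated in the labels.

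Scaling every gene by the fly counts carried this difference into the gene-level test. edgeR's quasi-likelihood test with Benjamini-Hochberg adjustment called 10826 of 20615 entries higher in L, 52.5%, and 106 lower, 0.514%, 53.0% in either direction, with a median log2 fold change of 1.18 over all tested entries. The libraries of the groups did not overlap for 19.0% of entries higher in L and 0.0776% lower. All genes of a library share its fly count, so these calls are not independent of each other or of the ratio above. The number of higher calls was 6738 without L replicates 4 and 5, 9453 within replicates 1 and 2, and 315 within replicates 3 to 5. It fell to between 3425 and 5862 when L replicate 1, L replicate 2, 24h replicate 1 or 24h replicate 3 was left out. Genes commonly used as references moved with the bulk: 10 of 12 were higher in L and none lower, at a median of 1.45. ACT2 (AT3G18780, actin) measured 343, 753, 777, 1517 and 640.4 fly-scaled CPM in 24h and 2950, 3012, 1659, 2459 and 1641 in L. The libraries of the groups did not overlap (log2 fold change 1.54 ± 0.48, edgeR adjusted p = 0.0163, and 0.0573 without 24h replicate 1). UBQ10 (AT4G05320, polyubiquitin) and NRPB1 (AT4G35800, the largest subunit of RNA polymerase II) were called at 1.19 ± 0.43 and 1.35 ± 0.52, with groups that overlapped. Both calls were lost without 24h replicate 1 or 3, or without L replicate 1, 2 or 4, UBQ10 also without 24h replicate 5 and NRPB1 also without 24h replicate 2, with edgeR adjusted p up to 0.0786 and 0.1.

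Few genes fell per fly count, and 4 met the naming rule. AT5G15120, annotated as a putative 2-aminoethanethiol dioxygenase, measured 14.2, 12, 5.95, 7.55 and 12.4 fly-scaled CPM in 24h and 1.06, 1.01, 2.06, 4.61 and 1.36 in L. Every L library lay below every 24h library, a 5.20-fold difference (log2 fold change -2.38 ± 0.51, edgeR adjusted p = 0.00187). PRN (AT3G59220), a pirin, and ARPN (AT2G02850), a plantacyanin of the cell wall, fell by 1.53 ± 0.43 and 1.52 ± 0.46 without overlap. The call of ARPN was lost without L replicates 4 and 5 (edgeR adjusted p = 0.0562). Lower calls numbered 65 and 63 without 24h replicate 1 or 3. ORS1 (AT2G41230), annotated as an ORGAN SIZE-like protein, fell by 2.22 ± 0.89, a call lost without any one of 24h replicates 1, 2, 3 and 5 and L replicates 1, 3 and 4 (edgeR adjusted p up to 0.0814). At the other end stood AT4G12510, a lipid transfer protein family gene with 6 counts over the 24h libraries and 312 over the L libraries (fly-scaled log2 fold change 6.97 ± 1.18, edgeR adjusted p = 0.000228). AT1G67865, annotated as uncharacterized, rose by 6.17 ± 0.79, and ABCG27 (AT3G52310), an ABC transporter, by 5.26 ± 0.69 on the same scale.

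The remaining comparisons ask what changed relative to the typical Arabidopsis gene. With TMM scaling over Arabidopsis genes, edgeR's quasi-likelihood test with Benjamini-Hochberg adjustment called 1232 of 20615 entries higher in L, 5.98%, and 959 lower, 4.65%, with a median log2 fold change of 0.03. The libraries of the groups did not overlap for 1009 entries higher in L, 4.89%, and for 792 lower, 3.84%, together 8.74%. All 1232 higher entries were also called higher by fly scaling. Of the 959 lower entries 91 were also lower per fly count and 868 were not called there, since the fly scaling placed the same genes 1.15 higher on the log2 scale at the median. A gene that fell within Arabidopsis had thus, in most cases, no detectable change per fly count. Without L replicates 4 and 5 the counts were 2133 higher and 2137 lower. They were 1740 and 1702 within replicates 1 and 2 but 78 and 60 within replicates 3 to 5. Replicates 1 and 2 were the most alike pair of each group, with correlations of log2 CPM of 0.978 in 24h and 0.977 in L. Pairs among replicates 3 to 5 correlated at 0.9476 to 0.9682 in 24h and 0.9234 to 0.9545 in L. The part of this smaller spread in the number of calls was not tested. Leaving out a single library gave 671 to 1464 higher and 573 to 1223 lower calls, with fewer than 1232 by over 1.5 times without L replicate 1 or 2 or 24h replicate 1 or 2.

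**Figure D2:**
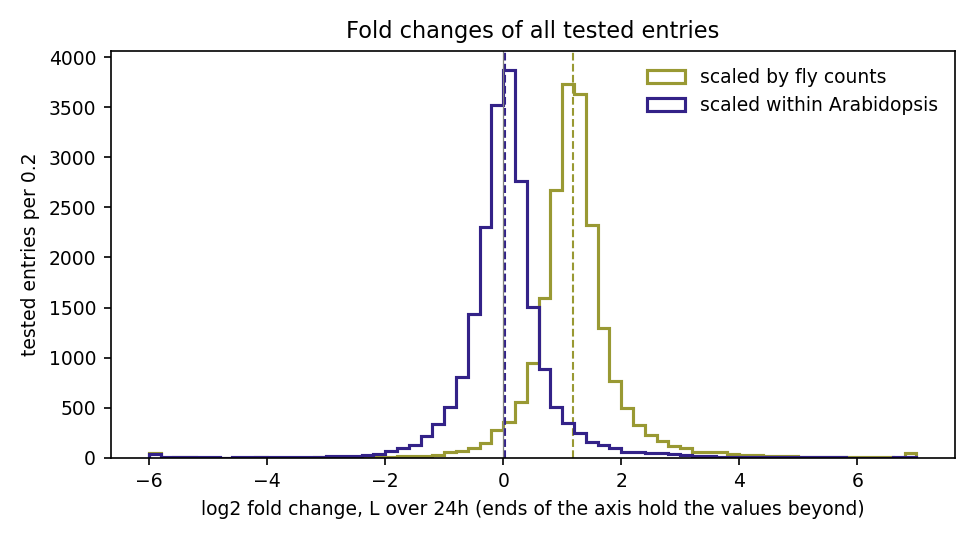
Number of tested entries (vertical axis, per 0.2 of log2 fold change) against the log2 fold change of L over 24h (horizontal axis) for scaling by fly counts and scaling within Arabidopsis; dashed lines are the medians. The medians were 1.18 and 0.03, so the fly-scaled distribution lies to the right of 0.

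From here on levels are CPM within Arabidopsis and changes are log2 fold changes of L over 24h on that scale. Counts of called list members are to be set beside 5.98% higher and 4.65% lower over all tested entries. The lists were chosen with earlier results of these data known, so these shares give a scale and not a test of a list. The largest increase among well-expressed genes without overlap was that of GSTF2 (AT4G02520), a phi-class glutathione S-transferase. It measured 1.27, 1.82, 3.61, 2.75 and 3.35 in 24h and 114, 167, 133, 23.0 and 33.0 in L, highest in L replicates 1 to 3 (5.20 ± 1.43, edgeR adjusted p = 0.0208, and up to 0.0578 without 24h replicate 1 or 2). TIP2;2 (AT4G17340), a water channel of the vacuolar membrane, measured 7.22, 3.61, 4.93, 2.33 and 1.36 in 24h and 187, 139, 50.01, 15.3 and 20.6 in L (4.40 ± 0.73, edgeR adjusted p = 0.000605). CRK21 (AT4G23290), a cysteine-rich receptor-like kinase, was the most even of these genes, at 0.803 to 2.03 in 24h and 9.48 to 24.6 in L (3.82 ± 0.26, edgeR adjusted p = 3.67e-09). The others of the 12 largest increases ranged from 2.82 to 3.83. They were CYP706A1 (AT4G22690, a cytochrome P450), AT3G28270 (a putative transmembrane protein), AT1G73600 (a methyltransferase), JAL22 (AT2G39310, a jacalin-related lectin), AT5G64120 (a peroxidase), AT1G22690 (of the gibberellin-regulated family), AT1G76240 and the auxin genes IAA1 and SAUR24 below. AT1G22690 was the most abundant of them, at 29.3 to 55.9 in 24h and 234 to 491 in L. The call of CYP706A1 was lost without 24h replicate 1, 2 or 3 (edgeR adjusted p up to 0.0662) and that of AT5G64120 without L replicate 2 (edgeR adjusted p = 0.0513).

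The 12 largest decreases by the same rule ranged from -2.21 to -3.57. AT2G16660, of the major facilitator transporters, measured 24.8, 17.6, 27.2, 4 and 4.46 in 24h and 1.45, 1.86, 1.62, 0.554 and 1.00 in L (-3.57 ± 0.60, edgeR adjusted p = 0.000642). Rap2.6L (AT5G13330), an AP2/ERF transcription factor, measured 16.3 to 75.0 in 24h and 3.08 to 6.34 in L (-3.15 ± 0.44, edgeR adjusted p = 0.000120). SCPL7 (AT3G10450), a serine carboxypeptidase-like protein, fell by 2.66 ± 0.28 and CRK28 (AT4G21400), another cysteine-rich receptor-like kinase, by 2.38 ± 0.38. PRN fell on this scale too, by 2.66 ± 0.41. In 3 of the 12 the L libraries were split: ORP4C (AT5G57240, an oxysterol-binding protein relative), AGP7 (AT5G65390, an arabinogalactan protein) and AT1G73530 (an RNA-binding protein) were at 0.918 to 3.29 in L replicates 1 to 3 and at 9.41 to 28.9 in L replicates 4 and 5. Their changes of -2.35, -2.33 and -2.21 became -4.64, -4.34 and -4.58 without L replicates 4 and 5. The remaining members were AT5G05965, AT5G50335, NAC6 (AT5G39610, a NAC factor of leaf senescence) and the clock gene RVE2. The call of NAC6 was lost without 24h replicate 2 or any one of L replicates 1 to 3, and that of AT5G50335 without 24h replicate 1, 2 or 5 or L replicate 1, 2, 3 or 5 (edgeR adjusted p up to 0.0610 and 0.0952).

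Several genes on the list of the auxin and shade response were higher in L. Auxin is perceived in the nucleus, where it leads to the loss of Aux/IAA repressors; Aux/IAA genes are themselves induced by auxin, as are the SAUR genes, whose products promote cell expansion, and HAT1 and HAT2 are homeodomain factors that respond to auxin and shade. Of 26 tested members of the list of 28, 9 were higher and none lower, with a median of 1.05, against 5.98% higher, 4.65% lower and a median of 0.03 over all tested entries. The counts were 11 and 1 without L replicates 4 and 5. IAA1 (AT4G14560), an Aux/IAA repressor, measured 3, 2.69, 2.98, 2.99 and 3.77 in 24h and 31.9, 30.8, 30.4, 19.4 and 6.21 in L. All 5 L libraries were above all 24h libraries, replicate 5 by the least (2.94 ± 0.36, edgeR adjusted p = 2.64e-05). HAT1 (AT4G17460) measured 5.70, 5.43, 5.16, 6.39 and 4.19 in 24h and 45, 31.1, 29.0, 36.6 and 27.7 in L (2.65 ± 0.27, edgeR adjusted p = 2.34e-06). Its L libraries differed little from each other, in contrast to those of IAA1. SAUR24 (AT5G18080) measured 1.78, 3.26, 2.29, 2.15 and 2.83 in 24h and 16.9, 12.3, 29.8, 21.3 and 6.71 in L (2.82 ± 0.62, edgeR adjusted p = 0.00493). SAUR21 (AT5G18030) was at 4.25 to 9.41 in 24h and 23.9 to 60.1 in L (2.28 ± 0.35). SAUR genes lie in clusters of near-identical copies, and how the authors' counting split reads among them is not stated in the labels.

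The other 5 called auxin members were named after their values were seen. They were the Aux/IAA genes IAA19 (AT3G15540, 2.13 ± 0.49), AXR3 (AT1G04250, 1.89 ± 0.56), SHY2 (AT1G04240, 1.80 ± 0.32) and IAA14 (AT4G14550, 0.95 ± 0.30), and HAT2 (AT5G47370, 1.46 ± 0.26). AXR3 measured 23.1 to 33.9 in 24h and 129, 122, 109, 97.9 and 38.4 in L, and its neighbour SHY2 19.7 to 30.0 in 24h and 123, 122, 115, 38.9 and 25.8 in L. Both were lowest in L replicate 5, where SHY2 lay within the 24h range. The call of AXR3 was lost without any one of 7 libraries (24h replicates 1, 2, 3 and 5 and L replicates 1 to 3) and that of IAA14 without any one but L replicate 5 (edgeR adjusted p up to 0.0787 and 0.126).

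The bases before the annotated starts of IAA1 and IAA19 are shown because these were the called auxin genes whose 250-base windows held the core of the auxin response element, TGTCTC, on either strand, in capitals. The windows were read from RefSeq's TAIR10.1 assembly, at chr4:8360746-8360995 and chr3:5263751-5264000, both on the plus strand and written 5′ to 3′ toward the gene.
IAA1: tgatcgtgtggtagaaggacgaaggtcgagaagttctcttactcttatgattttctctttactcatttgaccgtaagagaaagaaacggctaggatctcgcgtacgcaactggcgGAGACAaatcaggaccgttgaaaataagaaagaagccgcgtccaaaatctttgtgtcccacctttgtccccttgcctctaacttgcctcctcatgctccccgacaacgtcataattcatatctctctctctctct
IAA19: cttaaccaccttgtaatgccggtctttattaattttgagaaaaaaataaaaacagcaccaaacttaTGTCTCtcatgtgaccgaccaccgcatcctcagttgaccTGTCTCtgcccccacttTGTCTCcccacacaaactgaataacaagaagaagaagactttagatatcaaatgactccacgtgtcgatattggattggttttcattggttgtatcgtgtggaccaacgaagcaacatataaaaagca
IAA1 held 1 match, on the other strand, and IAA19 held 3 on its own strand. Over the list 6 of 26 tested members held a match, and 2 of the 9 called ones. Over all 27443 protein-coding genes with such a window 10.9% held one. A match is a description of the letters and not of a bound site.

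Among iron and copper genes, 4 regulators of iron uptake and the copper importer COPT2 were higher in L, and a ferritin and a copper chaperone of superoxide dismutases were lower. The basic helix-loop-helix factors BHLH38, BHLH39, BHLH100 and BHLH101 are transcribed when iron is short, and COPT2 is a copper importer that is induced by copper shortage. Ferritins store iron in plastids, and CCS delivers copper to the superoxide dismutases CSD1 and CSD2. Of the 16 members of the list, all tested, 8 were higher and 2 lower, with a median of 0.73, and the counts were also 8 and 2 without L replicates 4 and 5. BHLH100 (AT2G41240) measured 0.458, 1.61, 0, 0.299 and 0.367 in 24h and 9.18, 15.2, 8.56, 9.54 and 2.2 in L (3.98 ± 0.77, edgeR adjusted p = 0.00768). BHLH38 (AT3G56970) measured 0.254, 1.3, 0.229, 0.956 and 0.996 in 24h and 3.72, 5.48, 3.87, 9.30 and 1.82 in L (2.68 ± 0.57, edgeR adjusted p = 0.00769). In both genes 24h replicate 2 was the highest of its group and L replicate 5 the lowest of its own, without overlap. BHLH39 (AT3G56980) rose by 2.57 ± 0.53. BHLH101 (AT5G04150) rose by 3.52 ± 0.95, from 22 counts over the 24h libraries, 20 of them in replicate 2, to 227 over the L libraries. The call of BHLH101 was lost without 24h replicate 1, 3 or 5 (edgeR adjusted p up to 0.0556).

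The other called members, COPT2, CCH, CCS, FER4, NAS4 and BTS, were named after their values were seen. COPT2 (AT3G46900) measured 5.64, 9.08, 4.76, 7.47 and 5.97 in 24h and 21.6, 21.8, 19.3, 25.7 and 15.2 in L (1.65 ± 0.45, edgeR adjusted p = 0.0209). CCH (AT3G56240), a copper chaperone, measured 120.3, 177, 93.8, 91.1 and 116 in 24h and 403, 358, 231, 198 and 248 in L (1.26 ± 0.29, edgeR adjusted p = 0.00679). Both genes had every L library above every 24h library. In the other direction CCS (AT1G12520) measured 113, 53.2, 77.9, 158 and 71.8 in 24h and 34.8, 29.1, 22, 22.5 and 32.6 in L (-1.75 ± 0.28, edgeR adjusted p = 0.000475). From the list of photoprotection and antioxidant enzymes, CSD2 (AT2G28190), the copper/zinc superoxide dismutase of the plastid, measured 1106, 426, 607, 1139 and 792 in 24h and 311, 227, 142, 123 and 133 in L (-2.12 ± 0.40, edgeR adjusted p = 0.00175). CSD1 (AT1G08830), its cytosolic counterpart on the same list, fell by 1.38 ± 0.37, with L replicate 1 above the lowest 24h library. FER4 (AT2G40300), the ferritin of the iron list, fell from 42.2 to 76.7 in 24h to 21.6 to 32.8 in L (-1.18 ± 0.20, edgeR adjusted p = 0.000709). NAS4 (AT1G56430, nicotianamine synthase, 1.39 ± 0.35) and BTS (AT3G18290, an iron-binding ubiquitin ligase, 0.91 ± 0.23) completed the higher members. The call of COPT2 was lost without 24h replicate 1, 3 or 5 or L replicate 1 or 2, and that of NAS4 without L replicate 3 (edgeR adjusted p up to 0.0602 and 0.0604). The call of CSD1 was lost without L replicates 4 and 5 (edgeR adjusted p = 0.0704). None of CCS, CSD1, CSD2 and FER4 was called lower per fly count. IRT1 (AT4G19690), the iron importer of roots, was among the root markers and held 3 counts over the 24h libraries and 95 over the L libraries; the part of root RNA in the iron genes was not tested.

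**Figure D3:**
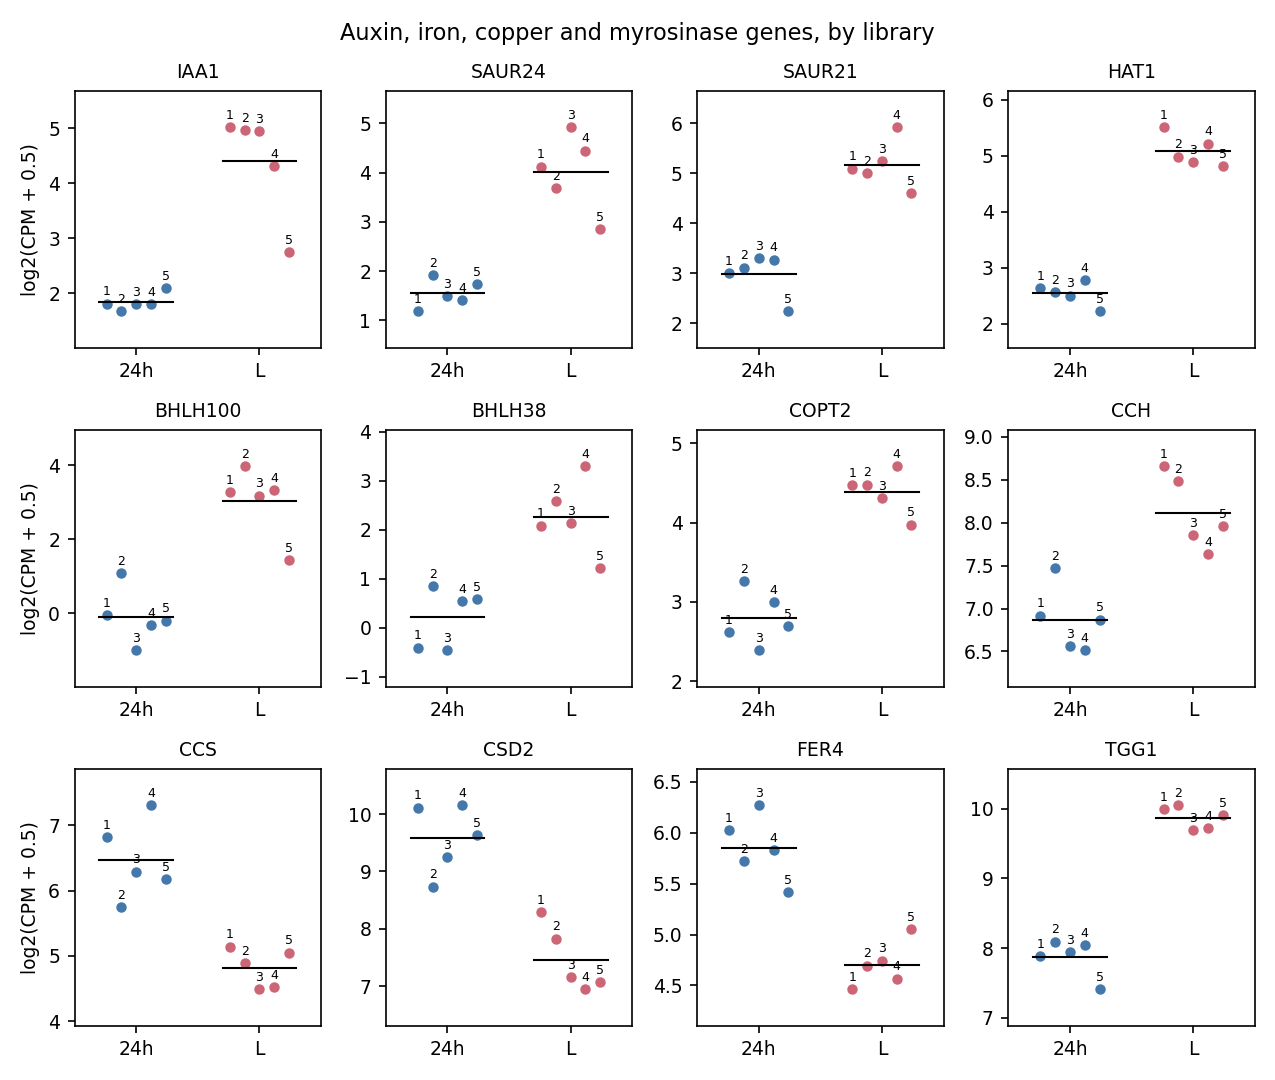
Levels of 12 auxin, iron, copper and myrosinase genes as log2 of CPM within Arabidopsis plus 0.5 (vertical axes) in each 24h and L library; digits name the replicate and the bar is the mean of the log2 values. The 12 genes were chosen for display from called ones, so the lack of overlap in all 12 panels is no result about the lists. Over all tested entries the groups did not overlap for 8.74%. IAA1 and BHLH100 are lowest in L replicate 5.

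Glucosinolate genes and a myrosinase were higher in L. Glucosinolates are sulfur-rich defence compounds of the cabbage order, and myrosinases split them into toxic products when tissue is damaged. Of 18 tested members of the list of 25, 9 were higher and none lower, with a median of 0.94, and 11 were higher without L replicates 4 and 5. TGG1 (AT5G26000), the myrosinase of guard cells and myrosin cells, measured 236, 272, 246, 264 and 170.0 in 24h and 1021, 1061, 827, 842 and 962 in L. Every L library lay far above every 24h library (1.99 ± 0.21, edgeR adjusted p = 3.16e-06). CYP83A1 (AT4G13770), which acts in the aliphatic pathway, measured 0 to 0.631 in 24h and 4.16, 0.667, 12.5, 1.42 and 0.879 in L (3.66 ± 0.86). It was highest in L replicate 3, as was IMD1 (AT5G14200, 1.89 ± 0.48), which acts in side chain elongation, and both calls were lost without that library (edgeR adjusted p = 0.0622 and 0.111). SOT17 (AT1G18590), a sulfotransferase of the last synthetic step, rose by 1.45 ± 0.44, a call lost without any one of 7 libraries (24h replicates 1 to 4 and L replicates 1 to 3, edgeR adjusted p up to 0.141). Of 10 tested genes of jasmonate and salicylate defence and senescence 3 were higher and 1, NAC6, was lower. AOS (AT5G42650), an enzyme of jasmonate synthesis, was at 5.69 to 9.96 in 24h and 22.5 to 31.0 in L (1.79 ± 0.40, edgeR adjusted p = 0.00592). PR5 (AT1G75040), a thaumatin-like defence protein, rose by 2.73 ± 0.62. WRKY33 (AT2G38470), a defence transcription factor, rose by 2.36 ± 0.76, a call lost without any one of 8 libraries (all but L replicates 4 and 5, edgeR adjusted p up to 0.125).

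Within Arabidopsis, where 5.98% of all entries were higher and 4.65% lower, the photosynthetic lists held 4 called genes. None of 31 genes for photosystem and electron transport subunits was called, with a median of 0.30 and a range from -0.35 to 0.58 on the log2 scale. Fly scaling called 24 of them higher, against 52.5% of all entries. Of 20 antenna protein genes 2 were called higher: LHCB2.2 (AT2G05070, 1.23 ± 0.38) and LHCB4.2 (AT3G08940, 0.71 ± 0.23). LHCB2.2 measured 2020, 1829, 2749, 2753 and 1270 in 24h and 3815, 3424, 3401, 6281 and 7925 in L. No antenna gene was called without L replicates 4 and 5, which held the highest L values of both. Each call was also lost without single libraries, that of LHCB2.2 without any but L replicate 3 and that of LHCB4.2 without any of the 10 (edgeR adjusted p up to 0.118 and 0.150). LHCB1.3 (AT1G29930), a major antenna protein of photosystem II also known as CAB1, measured 22770, 19040, 24100, 21450 and 11650 in 24h and 11300, 11660, 15530, 24070 and 29660 in L. L replicate 4 was close to the highest 24h library, L replicate 5 was above it, L replicates 2 and 3 lay below all 24h libraries but replicate 5, and L replicate 1 lay below all of them (-0.10 ± 0.39, edgeR adjusted p = 0.910).

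Of 18 Calvin-Benson cycle genes 2 were higher and none lower, with a median of 0.28. RBCS2B (AT5G38420), a small subunit of Rubisco, measured 5996, 6288, 7677, 3301 and 2324 in 24h and 11890, 13610, 16080, 8125 and 14370 in L (1.32 ± 0.29, edgeR adjusted p = 0.00484). The groups did not overlap. It also occurs in 3 entries that join several identifiers, so reads may be split among its paralogs. GAPA (AT3G26650), a glyceraldehyde-3-phosphate dehydrogenase subunit, rose by 1.00 ± 0.26, a call lost without 24h replicate 5 or L replicate 1 or 2 (edgeR adjusted p up to 0.0650). RBCS1A (AT1G67090) was the most abundant nuclear entry of both groups, with 3.83% ± 0.81 (SD, n = 5) of nuclear counts in 24h and 4.56% ± 0.68 in L. RBCS3B (AT5G38410) followed with 3.22% ± 0.77 and 3.27% ± 0.68. The 100 most abundant nuclear entries of a library took 39.1% ± 2.70 of nuclear counts in 24h and 42.2% ± 5.46 in L (two-sided exact permutation p = 0.310), with L replicate 5 highest at 50.1%. The other entries among the 10 largest of either group were further antenna genes (LHCB1.1, LHCB1.5), PSBR, PSBX and RCA of photosynthesis, and AT3G06365 and AT3G41768. Product names were read from mRNA records alone, and none was found there for AT3G06365 and AT3G41768. Whether these entries are genes of non-coding RNA was not examined, and their counts are part of the nuclear counts. AT3G06365 varied from 2735 to 38410 CPM between 24h libraries.

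GLK1 (AT2G20570) and GLK2 (AT5G44190) are transcription factors that promote chloroplast development and the transcription of antenna and chlorophyll synthesis genes. GLK1 measured 36.6, 30.2, 33.0, 16.8 and 24.0 in 24h and 228, 231, 180.1, 30.4 and 64.8 in L (2.38 ± 0.40, edgeR adjusted p = 0.000608). It was several fold higher in L replicates 1 to 3 than in any 24h library, whereas L replicate 4 lay within the 24h range. GLK2 measured 65.2 to 116 in 24h and 129 to 251 in L, without overlap (1.07 ± 0.22, edgeR adjusted p = 0.00364). Both belong to the list of 37 tested light signalling regulators, of which 5 were higher and 3 lower, with a median of -0.11. The counts were 4 and 7 without L replicates 4 and 5. PIF7 (AT5G61270) and PIF4 (AT2G43010), helix-loop-helix factors of shade and warmth growth, rose by 0.89 ± 0.16 and 1.25 ± 0.34, and BBX24 (AT1G06040), a B-box repressor, by 0.53 ± 0.14. PIF3 (AT1G09530), a repressor of greening in the dark, measured 36.1, 30.7, 24.6, 21.1 and 26.6 in 24h and 10.5, 10.2, 8.04, 11.9 and 11.1 in L (-1.43 ± 0.26, edgeR adjusted p = 0.00137). The groups were far apart and the L libraries close together. BBX20 (AT4G39070), a B-box activator, and PIL1 (AT2G46970), a shade-induced factor, fell by 1.80 ± 0.23 and 1.73 ± 0.38. The calls of PIF4 and BBX24 were lost without single libraries, PIF4 without 24h replicate 2 or 5 or L replicate 5 and BBX24 without 24h replicate 1, 2 or 5 or L replicate 1 or 2 (edgeR adjusted p up to 0.0701 and 0.0699). GLK2, PIF4, PIF7 and BBX24 were named after their values were seen. HY5 (AT5G11260), the central activator of light responses, and PHYA (AT1G09570), the far-red photoreceptor, were not called, at -0.48 ± 0.39 and -0.18 ± 0.24, and no photoreceptor gene of 10 was. PHYA was called lower without L replicates 4 and 5 (-0.75, edgeR adjusted p = 0.0153).

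The early light-induced proteins are thylakoid proteins that appear during greening and light stress. ELIP1 (AT3G22840) measured 676, 764, 1068, 1268 and 2020 in 24h and 944, 1119, 824, 908 and 119 in L (-0.57 ± 0.57, edgeR adjusted p = 0.603). ELIP2 (AT4G14690) measured 672, 834, 1079, 896 and 965 in 24h and 1912, 2302, 1438, 1036 and 149 in L (0.62 ± 0.43, edgeR adjusted p = 0.408). In both genes L replicate 5 was far below all other libraries. Per fly count ELIP2 was called higher (1.86 ± 0.66, edgeR adjusted p = 0.0247), a call lost without 24h replicate 1 or 3 or L replicate 1 or 2 (edgeR adjusted p up to 0.0925).

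Several genes on the list of plastid transcription were lower in L relative to the typical Arabidopsis gene. The plastid genome is transcribed in part by a bacterial type RNA polymerase whose associated proteins, PTAC10, HMR, FLN1, FLN2, PTAC6, PTAC14, TRXZ and FSD3 among them, are encoded in the nucleus and are needed for greening. Of 20 members 8 were lower and none higher, with a median of -0.82, and 11 were lower and 1 higher without L replicates 4 and 5. PTAC10 (AT3G48500) measured 39.0, 31.7, 32.5, 51.3 and 76.9 in 24h and 9.18, 7.96, 12.1, 26.3 and 9.66 in L (-1.83 ± 0.36, edgeR adjusted p = 0.00260). FLN1 (AT3G54090), a fructokinase-like protein, measured 48.3, 42.2, 35.3, 57.0 and 72.4 in 24h and 10.3, 9.34, 15.6, 35.5 and 10.5 in L (-1.65 ± 0.31, edgeR adjusted p = 0.00175). In both genes L replicate 4 was high among the L libraries and 24h replicate 5 high among the 24h libraries, and the groups overlapped in FLN1 but not in PTAC10. FLN2 (AT1G69200) and HMR (AT2G34640) fell by 1.60 ± 0.42 and 1.56 ± 0.30 without overlap. The other called members fell by 0.98 to 1.16 and were named after their values were seen: PTAC6 (AT1G21600), PTAC14 (AT4G20130), TRXZ (AT3G06730, a thioredoxin) and FSD3 (AT5G23310, an iron superoxide dismutase). The calls of TRXZ and FSD3 were lost without 24h replicate 5 (edgeR adjusted p = 0.0530 and 0.0603), and that of FSD3 also without L replicates 4 and 5 (edgeR adjusted p = 0.0612). Per fly count 5 of the 20 members were higher, against 52.5% of all entries, and the median was 0.28 against 1.18. The plastid genes themselves were hardly called: 2 of 107 were lower and none higher within Arabidopsis, and 6 were higher and none lower by fly scaling. Of 54 mitochondrial genes none was called within Arabidopsis, where their median was -0.59, and 1 was higher by fly scaling.

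Tetrapyrrole synthesis is the pathway to chlorophyll and heme. Of 26 members 3 were higher and 5 lower, with a median of -0.31, and the lower ones numbered 13 without L replicates 4 and 5. GSA1 (AT5G63570), HEME1 (AT3G14930), HEME2 (AT2G40490), LIN2 (AT1G03475) and CHLD (AT1G08520), enzymes of the common steps up to magnesium insertion, fell by 0.93 ± 0.24, 0.92 ± 0.21, 0.88 ± 0.17, 0.71 ± 0.19 and 0.56 ± 0.16. HEME2 measured 326, 301, 269.6, 328 and 295 in 24h and 139, 127, 133, 237 and 189 in L, without overlap. The later chlorophyll branch enzymes CRD1 (AT3G56940, 0.62 ± 0.20) and CAO (AT1G44446, 0.61 ± 0.18), rose. PORA (AT5G54190), a light-dependent protochlorophyllide reductase that is abundant in the dark, measured 0.516 to 0.661 in 24h and 0.242, 0.191, 6.94, 11.6 and 1.44 in L (2.74 ± 0.76, edgeR adjusted p = 0.0232). Its rise rested on L replicates 3 to 5, and within replicates 1 and 2 it lay at -1.53. PORB (AT4G27440), a related protochlorophyllide reductase, measured 59.3, 44.2, 51.2, 44.5 and 61.5 in 24h and 11.9, 11, 34.9, 65.5 and 325 in L. It was not called within Arabidopsis over all libraries (0.78 ± 0.57, edgeR adjusted p = 0.433) and was called lower without L replicates 4 and 5 (-1.45, edgeR adjusted p = 0.00259). Per fly count it was called higher (1.80 ± 0.66, edgeR adjusted p = 0.0277), a call lost without 24h replicate 1 or 3 or L replicate 5 (edgeR adjusted p up to 0.567) and at -0.53 without L replicates 4 and 5. LIN2, CHLD, CAO and CRD1 were named after their values were seen. Calls were lost without single libraries for PORA (24h replicates 1, 2, 3 and 5 and L replicates 3 and 4), CAO (24h replicates 2, 4 and 5 and L replicates 1 and 2), CRD1 (all but 24h replicate 4 and L replicate 4), LIN2 (L replicates 1 and 2) and CHLD (24h replicate 4 and L replicates 1 and 2). The edgeR adjusted p then reached 0.0998, 0.109, 0.135, 0.0597 and 0.0596.

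Some genes of dividing cells and of the early stomatal lineage were lower in L. Of 29 cell cycle and DNA replication genes 5 were lower and none higher, with a median of 0.05, and 8 were lower and 1 higher without L replicates 4 and 5. All 5 act in mitosis or cytokinesis. AUR1 (AT4G32830), an Aurora kinase, measured 9.46, 9.87, 7.05, 11.3 and 11.7 in 24h and 3.77, 4.05, 3.76, 5.29 and 4.02 in L (-1.24 ± 0.27, edgeR adjusted p = 0.00501). The mitotic cyclins CYCB1;1 (AT4G37490) and CYCB1;4 (AT2G26760) fell by 1.23 ± 0.31 and 1.31 ± 0.34, KN (AT1G08560), the syntaxin of the cell plate, by 1.22 ± 0.39, and CDKB2;2 (AT1G20930), a mitotic kinase, by 0.70 ± 0.17. None of the 5 had overlapping groups. Over all tested entries 3.84% were lower without overlap. Per fly count none of the 29 genes of the list was called lower and 11 were higher, against 52.5% of all entries. Their median was then 1.15, against 1.18 over all tested entries. The call of CYCB1;4 was lost without L replicate 1 or 2, and that of KN without any one of 8 libraries (all but L replicates 4 and 5, edgeR adjusted p up to 0.0530 and 0.123). Replication-coupled histone genes, markers of DNA synthesis, were not called in either direction (0 of 13, median -0.14).

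Stomata form from a lineage that divides asymmetrically and ends in a pair of guard cells. Of 18 genes of this lineage 4 were lower and 3 higher, with a median of -0.23. The lower ones act early: EPF2 (AT1G34245) and EPF1 (AT2G20875), secreted peptides that space the lineage, BASL (AT5G60880), a polarity protein of its divisions, and MUTE (AT3G06120), the factor that ends them. EPF2 measured 22.4, 14.3, 18.9, 11.7 and 24.0 in 24h and 6.47, 5.67, 5.55, 7.82 and 6.53 in L (-1.51 ± 0.27, edgeR adjusted p = 0.000967). The L libraries were nearly equal and all lay below the 24h range. EPF1 and BASL fell by 1.19 ± 0.23 and 1.15 ± 0.26, and MUTE by 0.74 ± 0.23. SPCH (AT5G53210), which starts the lineage, measured 12.8, 13.8, 14.4, 13.3 and 18.1 in 24h and 8.5, 9.01, 10.2, 9.23 and 6.4 in L. Its groups did not overlap, yet it was not called (-0.74 ± 0.28, edgeR adjusted p = 0.0971). The higher ones act in mature guard cells: HT1 (AT1G62400), a kinase of the carbon dioxide response, rose by 1.06 ± 0.30, SLAC1 (AT1G12480), the anion channel of closure, by 0.87 ± 0.24, and MYB60 (AT1G08810), a guard cell factor, by 0.42 ± 0.13. Calls were lost without single libraries for HT1 (24h replicates 1 to 3 and L replicates 1 to 3), SLAC1 (24h replicates 1 and 2 and L replicates 4 and 5), MYB60 (24h replicates 1 to 4 and L replicates 1, 2, 3 and 5) and MUTE (24h replicates 1 to 4 and L replicates 1, 2 and 5) (edgeR adjusted p up to 0.0781, 0.0722, 0.138 and 0.1001). MUTE, SLAC1 and MYB60 were named after their values were seen, as was CDKB2;2 above. The stomatal list held 6 lower and 2 higher members without L replicates 4 and 5.

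Of 12 vascular genes 4 were higher and none lower, with a median of 0.69, and the summed level was 100.9 to 128 in 24h and 155 to 187 in L. The shares over all tested entries, 5.98% higher and 4.65% lower, also stand beside the cell wall, leaf growth and cuticle lists below. XCP2 (AT1G20850), a protease of xylem cells, measured 6.25, 8.87, 9.69, 10.1 and 4.93 in 24h and 16.5, 14.3, 17.5, 17.1 and 18.6 in L (1.08 ± 0.28, edgeR adjusted p = 0.0144). PP2-A1 (AT4G19840), a phloem lectin, was at 53.9 to 69.9 in 24h and 89.5 to 123 in L (0.72 ± 0.17, edgeR adjusted p = 0.00956). CESA4 (AT5G44030) and IRX12 (AT2G38080), enzymes of secondary wall cellulose and lignin, rose by 1.1 ± 0.33 and 1.06 ± 0.34. Their calls were lost without any one of 7 and 8 libraries, CESA4 without any but 24h replicate 3 and L replicates 2 and 5 and IRX12 without any but 24h replicate 3 and L replicate 5 (edgeR adjusted p up to 0.0974 and 0.125). Of 23 genes of cell wall expansion and cellulose synthesis, CESA2 (AT4G39350), a primary wall cellulose synthase, rose by 0.69 ± 0.16 and XTH15 (AT4G14130), a xyloglucan hydrolase, fell by 1.99 ± 0.59. The call of XTH15 was lost without 24h replicate 1, 2 or 4 or L replicate 1, 2 or 5 (edgeR adjusted p up to 0.0877). The cell wall list held 5 higher and 3 lower members without L replicates 4 and 5. AN3 (AT5G28640), a coactivator that prolongs cell proliferation in leaves, was the only called gene of 12 leaf growth regulators. It measured 3.41 to 5.74 in 24h and 23.7, 21.9, 16.8, 2.96 and 6.59 in L, with L replicate 4 below the 24h range (1.65 ± 0.40, edgeR adjusted p = 0.0102). The leaf growth list held 2 higher and 3 lower members without L replicates 4 and 5. Of 20 tested cuticle and epidermis genes 1 was higher and 2 lower: CUT1 (AT1G68530), a wax synthesis enzyme, by 0.48 ± 0.16, LTP2 (AT2G38530), a lipid transfer protein, by -1.68 ± 0.49, and CER1 (AT1G02205), an alkane synthesis protein, by -2.75 ± 0.71. CER1 was at 6.82 to 14.9 in 24h replicates 1 to 3 and at 0.681 and 0.717 in replicates 5 and 4, within the L range of 0.429 to 2.31. The call of CUT1 was lost without any one library but 24h replicate 3, and that of LTP2 without 24h replicate 2 or 3 or L replicate 1 or 2 (edgeR adjusted p up to 0.159 and 0.0698). The cuticle list held 4 lower and 0 higher members without L replicates 4 and 5. CLV3 (AT2G27250), a peptide of the shoot meristem, held 6 to 17 counts in each 24h library and 0 in every L library; the part of meristem tissue was not tested.

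Among 20 genes of other growth hormones 4 were higher and 2 lower, with a median of 0.25. GA20OX2 (AT5G51810), an enzyme of gibberellin synthesis, measured 0.610 to 0.891 in 24h and 1.68 to 3.83 in L (1.87 ± 0.34, edgeR adjusted p = 0.00141), and GID1B (AT3G63010), a gibberellin receptor, fell by 1.08 ± 0.27. BAS1 (AT2G26710), which inactivates brassinosteroids, measured 2.59, 3.87, 3.96, 6.57 and 4.25 in 24h and 21.4, 19.4, 19.4, 14.1 and 3.45 in L, where replicate 5 fell within the 24h range (1.88 ± 0.33, edgeR adjusted p = 0.000851). The cytokinin response regulators moved apart: ARR5 (AT3G48100) and ARR7 (AT1G19050) rose by 1.55 ± 0.42 and 1.4 ± 0.40, and ARR16 (AT2G40670) fell by 1.68 ± 0.30. ARR7 was at 33.2 to 49.5 in L replicates 1 to 3 and within the 24h range of 7.97 to 15.9 in L replicates 4 and 5. The call of ARR5 was lost without 24h replicate 3 or 5, and that of ARR7 without 24h replicates 1 to 4 or L replicates 1 to 3, each alone (edgeR adjusted p up to 0.0612 and 0.109). ARR7 and GID1B were named after their values were seen.

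Clock gene levels differed widely among the L libraries. The plant clock is a set of repressors expressed in sequence: LHY and CCA1 peak near dawn, PRR9 in the morning, PRR5 and GI toward the end of the day, and TOC1 and ELF3 near dusk. LHY (AT1G01060) measured 290.2, 395, 328, 337 and 359 in 24h and 336, 370.5, 377, 104 and 12.6 in L. CCA1 (AT2G46830) measured 204, 214, 221, 173 and 129 in 24h and 277, 287, 233, 121 and 39.1 in L. L replicates 1 to 3 lay within the 24h range for LHY and above every 24h library for CCA1. In both genes L replicate 4 lay below every 24h library and L replicate 5 was lowest. TOC1 (AT5G61380) measured 10.7, 11.3, 10.6, 9.20 and 11.1 in 24h and 2.56, 2.72, 3.35, 6.03 and 20.5 in L, the reverse order. PRR5 (AT5G24470), named after its values were seen, measured 0.577 to 1.43 in 24h, 0.477 to 0.862 in L replicates 1 to 4 and 46.3 in L replicate 5. None of these 4 genes was called (LHY -0.51 ± 0.61, CCA1 0.02 ± 0.39, TOC1 -0.60 ± 0.43, PRR5 3.06 ± 1.00, edgeR adjusted p = 0.0518 for PRR5). Without L replicates 4 and 5, TOC1 was called lower (-1.89, edgeR adjusted p = 0.000297).

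Of 25 clock genes 3 were higher and 2 lower, with a median of 0.27. The counts were 3 and 5 without L replicates 4 and 5. PRR9 (AT2G46790) was higher in every L library, at 8.34, 6.48, 15.7, 5.20 and 1.05 in 24h and 34.2, 32.0, 22.6, 39.0 and 24.0 in L (2.05 ± 0.48, edgeR adjusted p = 0.00782). RVE2 (AT5G37260), a Myb factor related to CCA1, measured 274, 306, 156, 149 and 168 in 24h and 58.2, 41.1, 35.9, 23.3 and 15.3 in L (-2.60 ± 0.42, edgeR adjusted p = 0.000475). ELF3 (AT2G25930), of the evening complex, measured 26.5, 26.2, 24.6, 20.2 and 28.1 in 24h and 3.62, 3.91, 3.70, 7.33 and 19.5 in L (-1.73 ± 0.35, edgeR adjusted p = 0.00287). Groups did not overlap for these 3 genes, although L replicate 5 of ELF3 came close to the 24h libraries. GI (AT1G22770) rose by 1.4 ± 0.43 through L replicate 5, at 36.5 against 5.46 to 12.7 in the other L libraries, and was at 0.28 without L replicates 4 and 5 (edgeR adjusted p = 0.602). RVE6 (AT5G52660), named after its values were seen, rose by 0.45 ± 0.13. The call of GI was lost without L replicate 5 or 24h replicate 1, 2 or 5, and that of RVE6 without 24h replicate 1, 2 or 5 or L replicate 1 or 2 (edgeR adjusted p up to 0.238 and 0.131). Of 16 tested photoperiod and flowering genes, CO (AT5G15840), the photoperiod regulator, was at 1.26 to 1.95 in 24h and 0.193 to 1.00 in L (-1.65 ± 0.36, edgeR adjusted p = 0.00484), and SPL9 (AT2G42200), a factor of developmental age, rose by 1.33 ± 0.31. FLP1 (AT4G31380) rose by 2.31 ± 0.64 and SPL5 (AT3G15270) fell by 1.61 ± 0.46. The call of FLP1 was lost without 24h replicate 3 or 4 or L replicate 1 or 4, and that of SPL5 without 24h replicate 1 or 2 or L replicate 1 or 2 (edgeR adjusted p up to 0.0621 and 0.0759).

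The windows before TOC1 and PRR5 are shown because L replicate 5 stood far above the other L libraries in both genes, and because both held the evening element, AAATATCT, on either strand, in capitals. They lie at chr5:24674713-24674962 on the plus strand and chr5:8358547-8358796 on the minus strand of TAIR10.1, from RefSeq, written 5′ to 3′ toward the gene.
TOC1: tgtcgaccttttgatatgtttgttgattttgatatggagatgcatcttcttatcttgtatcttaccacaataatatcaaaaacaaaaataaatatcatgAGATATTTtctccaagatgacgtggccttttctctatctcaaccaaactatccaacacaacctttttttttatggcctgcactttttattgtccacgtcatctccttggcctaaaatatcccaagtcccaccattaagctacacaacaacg
PRR5: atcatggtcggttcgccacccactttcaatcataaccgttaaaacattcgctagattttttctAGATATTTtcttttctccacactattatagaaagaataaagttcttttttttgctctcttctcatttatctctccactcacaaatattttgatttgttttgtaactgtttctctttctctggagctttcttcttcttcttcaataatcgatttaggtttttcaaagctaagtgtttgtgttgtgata
Each match lay on the strand opposite to the gene. Of the 25 tested clock genes 8 held the element in this window and none of the 5 called ones did, against 4.79% of all protein-coding genes.

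**Figure D4:**
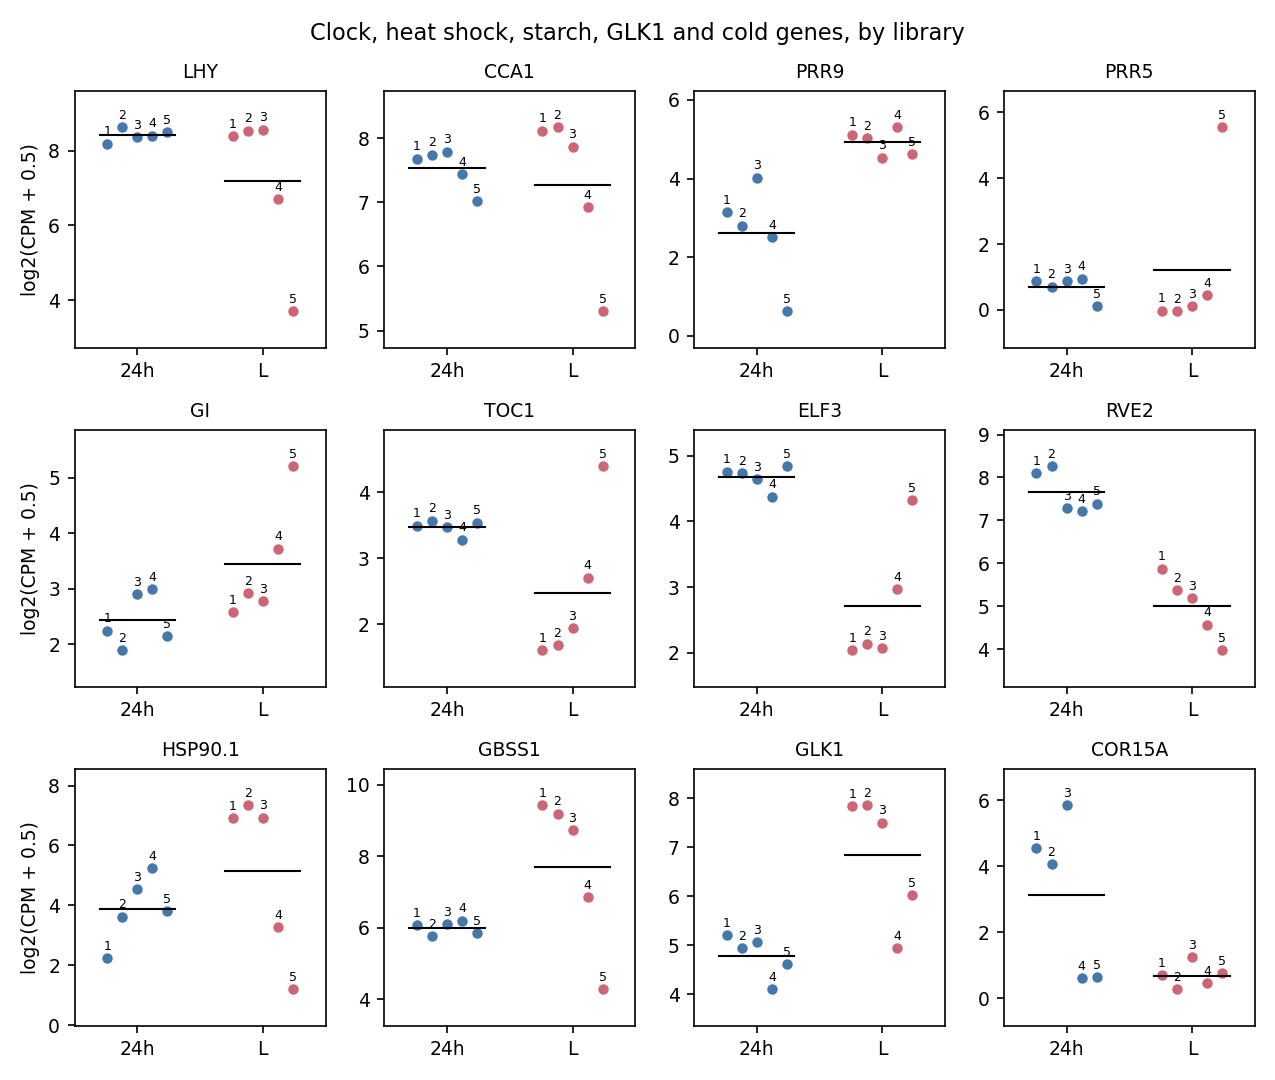
Levels of 12 clock, heat shock, starch, GLK1 and cold response genes as log2 of CPM within Arabidopsis plus 0.5 (vertical axes) in each 24h and L library; digits name the replicate and the bar is the mean of the log2 values. L replicates 4 and 5 lie apart from L replicates 1 to 3 for LHY, HSP90.1 and GBSS1, L replicate 5 alone for PRR5, and 24h replicates 4 and 5 apart from 24h replicates 1 to 3 for COR15A.

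Several heat shock genes differed between the same L libraries. Heat shock proteins are chaperones that bind unfolding proteins. HSP90.1 (AT5G52640), named after its values were seen, measured 4.22, 11.8, 22.9, 37.4 and 13.5 in 24h and 119.9, 162, 121, 9.17 and 1.82 in L. ROF2 (AT5G48570), a heat-induced prolyl isomerase, measured 5.75, 6.52, 17.9, 21.6 and 7.81 in 24h and 250, 223, 98.3, 8.37 and 3.95 in L (3.30 ± 0.69, edgeR adjusted p = 0.00368). L replicates 1 to 3 exceeded every 24h library in both genes and L replicates 4 and 5 did not. Of 12 heat shock genes 4 were higher and 1 lower, and 7 were higher without L replicates 4 and 5. HSP17.4 (AT3G46230) and HSP23.6-MITO (AT4G25200), small heat shock proteins, rose by 3.68 ± 0.94 and 2.85 ± 0.84 and HSP90.1 by 2.21 ± 0.69, and HSP22 (AT4G10250) fell from 82 counts over the 24h libraries to 3 over the L libraries. The call of HSP17.4 was lost without L replicate 1, that of HSP23.6-MITO without L replicate 1 or 2 or 24h replicate 1, 3, 4 or 5, and that of HSP90.1 without L replicates 1 to 3 or 24h replicates 1, 2, 3 and 5, each alone (edgeR adjusted p up to 0.0520, 0.186 and 0.131).

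Of 26 starch and sucrose genes 4 were higher and none lower, with a median of 0.36. The counts were 5 and 3 without L replicates 4 and 5. The summed level of the list was 2135 to 2931 in 24h and 3402 to 4039 in L. GBSS1 (AT1G32900), the starch synthase of amylose, measured 66.8, 53.9, 68.7, 72.9 and 56.9 in 24h and 689, 583, 422, 115 and 19.1 in L (2.52 ± 0.54, edgeR adjusted p = 0.00448). L replicates 1 to 4 lay above all 24h libraries and L replicate 5 below them. TPT (AT5G46110), which exports triose phosphate from the chloroplast, was steadier, at 748 to 1193 in 24h and 1445 to 1644 in L (0.66 ± 0.15, edgeR adjusted p = 0.00599). SWEET11 (AT3G48740) and SUC2 (AT1G22710), which load sucrose into the phloem, rose by 0.77 ± 0.20 and 0.66 ± 0.21. The call of SUC2 was lost without any one library but L replicates 2 and 3, and it was at 0.23 without L replicates 4 and 5 (edgeR adjusted p up to 0.149 and 0.462). SEN1 (AT4G35770), induced by darkness and sugar starvation, was the only called gene of 16 of that response. It measured 7.47, 41.2, 45, 64.4 and 2.62 in 24h and 369, 440.1, 179, 30.3 and 219 in L (2.94 ± 0.83, edgeR adjusted p = 0.0243, and up to 0.0671 without 24h replicate 1 or 5 or L replicate 1 or 2). Over all tested entries 5.98% were higher and 4.65% lower. The sugar starvation list held 1 higher and 5 lower members without L replicates 4 and 5.

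The cold and abscisic acid response was the list with the lowest median, -2.12, and its fall rested on 24h replicates 1 to 3. Many of its genes encode hydrophilic proteins that protect cells during freezing and drying. Of 11 tested members 7 were lower and none higher, and 5 were lower without L replicates 4 and 5. COR15A (AT2G42540) measured 22.9, 16.1, 56.8, 1.01 and 1.05 in 24h and 1.11, 0.715, 1.85, 0.862 and 1.19 in L (-4.09 ± 0.82, edgeR adjusted p = 0.00274). COR15B (AT2G42530) measured 78.3, 53.9, 84.8, 0.239 and 0.210 in 24h and 0 to 1.51 in L (-6.89 ± 1.24, edgeR adjusted p = 0.00119). In both genes 24h replicates 4 and 5 were at the level of the L libraries. RD29B (AT5G52300) measured 9.76, 5.17, 27.3, 0.836 and 0.629 in 24h and 0.231 to 0.554 in L (-4.60 ± 0.76), and KIN1 (AT5G15960) fell by 3.74 ± 0.92. No member was called within replicates 3 to 5, and 7 were called lower within replicates 1 and 2. The call of KIN1 was lost without 24h replicate 3 (edgeR adjusted p = 0.0595).

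The windows of COR15A and RD29B are shown because they moved together and held the core of the C-repeat, CCGAC, on either strand, in capitals. They lie at chr2:17712331-17712580 on the minus strand and chr5:21236771-21237020 on the plus strand of TAIR10.1, from RefSeq, written 5′ to 3′ toward the gene.
COR15A: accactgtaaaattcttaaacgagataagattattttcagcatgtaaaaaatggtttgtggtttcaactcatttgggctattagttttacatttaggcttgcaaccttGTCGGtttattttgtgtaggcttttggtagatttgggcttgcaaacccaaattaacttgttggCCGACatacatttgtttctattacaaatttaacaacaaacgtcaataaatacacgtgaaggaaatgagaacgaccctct
RD29B: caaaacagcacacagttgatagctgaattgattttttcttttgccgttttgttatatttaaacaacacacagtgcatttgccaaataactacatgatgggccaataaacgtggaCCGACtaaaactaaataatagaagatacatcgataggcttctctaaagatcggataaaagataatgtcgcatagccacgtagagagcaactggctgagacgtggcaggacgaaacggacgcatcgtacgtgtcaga
COR15A held 2 matches, 1 on each strand, and RD29B held 1. Of the 7 lower members 4 held a match, as did 4 of all 11 tested, against 12% of all protein-coding genes.

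Of 21 flavonoid and phenylpropanoid genes 6 were lower and 1 higher, with a median of 0.52. DFR (AT5G42800) and LDOX (AT4G22880), late enzymes of anthocyanin synthesis, fell by 3.52 ± 0.77 and 2.68 ± 0.66. DFR measured 7.47, 28.3, 34.5, 23.2 and 128 in 24h and 2.03, 0.715, 10.6, 5.11 and 1.00 in L, where only L replicate 3 exceeded the lowest 24h library. UGT79B1 (AT5G54060) and 5MAT (AT3G29590), which decorate anthocyanins, fell by 2.89 ± 0.65 and 2.79 ± 0.60. The regulators TT8 (AT4G09820) and MYB111 (AT5G49330) fell by 2.31 ± 0.44 and 1.98 ± 0.47 without overlap. C4H (AT2G30490), an early phenylpropanoid enzyme, rose by 1.46 ± 0.41, with L replicates 1 to 3 at 585 to 667, L replicates 4 and 5 at 122 and 76.3, and 129 to 176 in 24h. TT4 (AT5G13930), chalcone synthase, the first enzyme of the flavonoid branch, measured 144, 208, 325, 442 and 696 in 24h and 691, 624, 929, 311 and 44.9 in L, with wide overlap (0.52 ± 0.77, edgeR adjusted p = 0.743). The list held 8 higher and 6 lower members without L replicates 4 and 5. The call of C4H was lost without 24h replicate 1 or 2 or L replicate 1, 2 or 3 (edgeR adjusted p up to 0.0849). TT8, MYB111 and C4H were named after their values were seen.

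In lists of central metabolism 2 to 4 members each, or 1 for photorespiration, were called, against 10.6% of all entries in either direction. Of 16 seed lipid mobilisation genes 2 were higher: PCK1 (AT4G37870), of gluconeogenesis, at 5.54, 11.9, 6.94, 16.4 and 14.1 in 24h and 29.0, 25.1, 37.8, 45.5 and 67.4 in L (1.9 ± 0.29, edgeR adjusted p = 0.000235), and PMDH2 (AT5G09660), a peroxisomal malate dehydrogenase, by 0.87 ± 0.17. Neither had overlapping groups. The seed lipid list held 2 higher and 4 lower members without L replicates 4 and 5. The fixed gene ICL (AT3G21720), isocitrate lyase of the glyoxylate cycle, was at 2.08 to 13.8 in 24h and 2.17 to 12.8 in L and was not called (-0.24 ± 0.48). Of 11 seed storage and oil body genes 1 passed the filter on low counts, and it was not called. Of 13 nitrogen assimilation genes 2 were higher, GDH1 (AT5G18170, glutamate dehydrogenase, 1.34 ± 0.33) and NRT1.1 (AT1G12110, a nitrate transporter, 0.74 ± 0.21). Of 16 photorespiration genes 1 was, CAT2 (AT4G35090, catalase, 0.95 ± 0.26). Among 13 photoprotection and antioxidant genes SAPX (AT4G08390), a stromal ascorbate peroxidase, fell by 0.91 ± 0.21 and ABA1 (AT5G67030), zeaxanthin epoxidase, rose by 0.64 ± 0.16, beside the lower CSD1 and CSD2. Calls were lost without single libraries for NRT1.1 (24h replicates 2 and 3 and L replicates 1 and 4), CAT2 (24h replicates 1, 2 and 5 and L replicates 1 to 3) and ABA1 (24h replicate 5 and L replicate 1), with edgeR adjusted p up to 0.0659, 0.0830 and 0.0546. Without L replicates 4 and 5 the calls of GDH1 and ABA1 were lost (edgeR adjusted p = 0.0817 and 0.0514).

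Of 34 cytosolic ribosomal protein genes 2 were lower and none higher, with a median of -0.32 within Arabidopsis. Over all tested entries 4.65% were lower and 5.98% higher on this scale. RPL10A (AT1G14320) was at 798 to 1020 in 24h and 353 to 692 in L (-0.71 ± 0.20, edgeR adjusted p = 0.0238), and RPL28A (AT2G19730) fell by 0.80 ± 0.24. Neither call held without L replicates 4 and 5 (edgeR adjusted p = 0.0953 and 0.127), and each was lost without 24h replicate 1 or 2, RPL28A also without 24h replicate 5 or L replicate 3, 4 or 5 (edgeR adjusted p up to 0.0578 and 0.104). Per fly count 4 of the 34 were higher, against 52.5% of all entries, at a median of 0.83 against 1.18. None of 23 tested ribosome biogenesis genes was called within Arabidopsis, and 8 were higher without L replicates 4 and 5. Of 12 RNA polymerase II subunits NRPB2 (AT4G21710) rose by 0.51 ± 0.15, and of 12 reference genes ACT7 (AT5G09810, actin) by 0.62 ± 0.18. The call of NRPB2 was lost without any one library but L replicates 4 and 5, and that of ACT7 without any but 24h replicate 1 and L replicates 3 to 5 (edgeR adjusted p up to 0.119 and 0.138). ACT2, UBQ10 and NRPB1 were not called on this scale (0.48 ± 0.20, 0.03 ± 0.24 and 0.26 ± 0.27), and the sign of UBQ10 depended on the scaling, at -0.03 with upper quartile scaling.

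**Figure D5:**
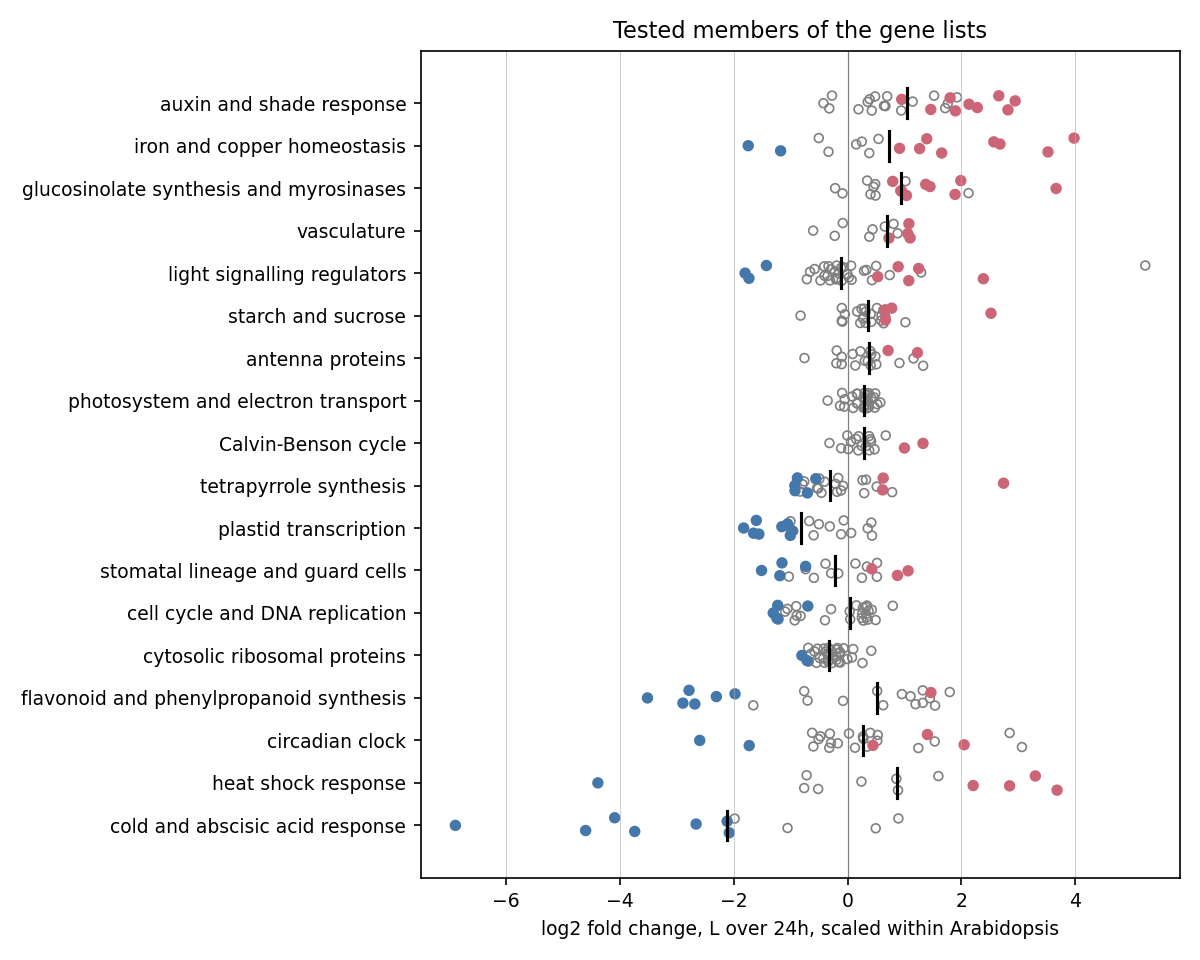
Log2 fold changes of L over 24h, scaled within Arabidopsis (horizontal axis), of the tested members of 18 gene lists (vertical axis); filled points passed an edgeR adjusted p of 0.05 (red higher in L, blue lower), open points did not, and the black line is the median of the list. Auxin, iron and copper, glucosinolate and vascular lists lie to the right of 0, plastid transcription and cold response lists to the left, and the 31 photosystem and electron transport genes form a narrow group without a called member.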

How the data were processed

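RNA was measured in wild-type Arabidopsis cotyledons by stranded paired-end DNB sequencing, per the labels' protocols, and 5 L libraries were compared with 5 24h libraries. The deposited table holds raw counts per gene, and per the submitters' processing notes Salmon 1.9.0, HTSeq and R 4.3.2 were used with TAIR10; the notes do not say which step used which tool. Some deposited entries join several identifiers, and 1539 entries without a gene name were left out.

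Counts were tested with edgeR 4.0.16 (R 4.3.3), by the quasi-likelihood test in a fit of all 25 libraries after filterByExpr (minimum count 10, minimum total 15), with Benjamini-Hochberg adjustment and a threshold of 0.05. Libraries were scaled by their summed fly counts, or by TMM over Arabidopsis genes. Standard errors are the log2 fold change divided by the root of the F statistic. Library ratios and shares were tested by two-sided exact permutation over 252 assignments. The p-values measure the spread between these libraries. The scripts were tested on simulated data. DESeq2 1.42.0, a fit of the 10 libraries of L and 24h alone, other scalings and filters, left-out libraries and replicate sets were the alternatives.

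The members and lists were chosen with earlier results of these data known. Named genes were the 12 largest increases and 12 largest decreases within Arabidopsis, and 6 each by fly scaling, taken from called genes whose groups did not overlap and whose higher group averaged 10 CPM or more. Up to 4 called members of each of the 39 lists, 18 fixed genes and the 10 most abundant nuclear entries of either group were added. The labels give both groups replicate numbers 1 to 5. Deviations of same-numbered libraries correlated at 0.351, 0.309, 0.135, 0.254 and 0.0315, so the numbers were not taken as pairs. By the same measure L replicates 1 to 5 were closest to 24h replicates 1, 1, 5, 4 and 4. Each was thus closest to a 24h library of its own replicate set (1 and 2, or 3 to 5). Promoter windows of 250 bases came from RefSeq's TAIR10.1.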

Additional observations from a re-analysis of the deposited data

Results flagged for a closer look

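In each group of 5 libraries the highest and the lowest value were set against the gap to the nearest other library. Chance flags about 1 in 20 groups, and 32 values stood apart among 342 gene groups, beside 12 library measures. All values here are CPM within Arabidopsis.

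L replicate 5 stood above the other L libraries in the clock genes TOC1 (20.5), GI (36.5), ELF3 (19.5) and PRR5 (46.3). It did so too in PORB (325), LHCB4.2 (4322) and COR15B (1.51). L replicate 4 was the highest L library in genes of plastid transcription, at 31.6 in HMR, 26.3 in PTAC10, 35.5 in FLN1, 59.0 in PTAC14 and 44.3 in TRXZ. It was also highest in EPF1 (13.8), BASL (7.33) and AUR1 (5.29), of the stomatal lineage and of mitosis, and in BHLH39 (8.31). L replicate 3 was highest in UGT79B1 (3.41), 5MAT (2.83), IMD1 (11.4), ARPN (2.66) and HSP22.0 (0.173). L replicate 1 stood apart in CUT1, at 242.

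Among the 24h libraries, replicate 5 was highest in DFR (128) and 5MAT (19.3), and in HMR (81.7), FSD3 (38.5), IAA1 (3.77) and IRT1 (0.157). In CAO, 24h replicate 5 stood apart at 177. Replicate 2 was highest in BHLH100 (1.61), BHLH101 (0.869) and HSP22.0 (2.22).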

How the results depend on the processing

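The log2 difference in nuclear counts per fly count stayed above 0 in every alternative run. Leaving out 1 library at a time gave 3425 to 13598 higher and 63 to 112 lower calls by fly scaling, and 671 to 1464 higher and 573 to 1223 lower within Arabidopsis. Within replicates 3 to 5 the calls were 315 higher and 20 lower by fly scaling and 78 and 60 within Arabidopsis. Without L replicates 4 and 5 they were 6738 higher by fly scaling, and 2133 higher and 2137 lower within Arabidopsis. Lower calls within Arabidopsis numbered 1614 with the replicate number as a block, 1445 with the replicate set as a covariate and 1702 within replicates 1 and 2. With the block, fly scaling called 14464 higher and 125 lower, and within Arabidopsis 1816 were higher; the numbers share no stated pairing. By replicate number, plastid counts per fly count were higher and the plastid share lower in L in all 5 pairs. The exact sign-flip test gave p = 0.0625 for each, the smallest that 5 pairs allow. The adjusted value was 0.188 with the other tests left unpaired. Nuclear and mitochondrial counts per fly count were also higher in L in all 5 pairs, with the same sign-flip p. Upper quartile scaling called 968 higher and 1113 lower, so that 46.5% of calls were higher against 56.2%. A fit of the 10 libraries of L and 24h alone tested 18867 entries. It called 918 higher and 790 lower within Arabidopsis, and 13841 and 71 by fly scaling. In that fit 34 gene values fell short of the threshold and 2 newly passed it. Those that fell short included GBSS1, LHCB4.2, PORA and CAT2 within Arabidopsis (edgeR adjusted p = 0.0510, 0.0721, 0.105 and 0.103).

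Signs changed for 2 called values, PORA within Arabidopsis, at -1.53 within replicates 1 and 2, and PORB by fly scaling, and otherwise for values that were not called. Without L replicates 4 and 5 the log2 difference in plastid counts per fly count was -0.33 and the share of the 100 largest entries differed by -0.64 percentage points (-1.07 within replicates 1 and 2). Without those libraries PORB was at -0.53 by fly scaling and -1.45 within Arabidopsis, LHY at 0.068, UBQ10 at -0.18 and PRR5 at -1.18. Within replicates 1 and 2 PORB was at -0.42 and -2.18, ELIP1 at 0.51, LHY at 0.036, UBQ10 at -0.095 and PRR5 at -1.34. Within replicates 3 to 5 LHCB1.3 was at 0.28, ELIP2 at -0.16, TT4 at -0.19, CCA1 at -0.41, PHYA at 0.23 and ICL at 0.22. Without the filter on low counts CCA1 was at -0.0024 and UBQ10 at -0.0061, and with upper quartile scaling at -0.055 and -0.033. Leaving out 1 library at a time gave LHCB1.3 -0.36 to 0.0066, PORB -0.78 to 1.04, CCA1 -0.18 to 0.27, ICL -0.62 to 0.066, UBQ10 -0.084 to 0.085 and PRR5 -0.97 to 3.34; the causes were not tested. Over 186 gene values and their alternatives, 3040 kept direction and side of the threshold, 598 fell short of it, 23 newly passed it and 34 changed sign. Without L replicates 4 and 5 the calls of PORA, PIF4, SLAC1, FLP1, IRX12 and CUT1 within Arabidopsis were lost too (edgeR adjusted p = 0.0731, 0.157, 0.132, 0.0625, 0.0535 and 0.0545), as were those of ORS1, UBQ10 and NRPB1 by fly scaling (edgeR adjusted p = 0.0636, 0.0936 and 0.109).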
